A study of Mus musculus with 6 samples.

Results

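C4b, the mouse gene for complement component 4B, was followed across age and brain region in Visium spatial RNA sequencing of coronal mouse brain sections. It is 1 of the 32285 genes in the count tables and was chosen because its rise with age and its concentration in white matter were already known from these sections, so its own levels are given as a description without a test. The mice were male and of the inbred C57BL/6J strain with no further alteration or treatment given in the labels, at 6 months (young), 18 months (middle) and 21 months (old), with 2 sections per age. Brains were frozen in embedding medium and cut at 16 µm. From the 2 males that the labels name for each age, the 2 sections were treated as separate animals, and p-values measure the spread between these sections. Young 1, young 2, middle 1 and old 1 lay on 1 slide, here slide 1, while middle 2 and old 2 lay on slide 2. Each spot of the array captures polyadenylated RNA from a small patch of tissue that can hold several cells, and each unique molecular identifier (UMI) stands for 1 captured molecule.

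C4 is an early component of the classical and lectin pathways of complement. After C1q, bound to a target together with the proteases C1r and C1s, has activated the cascade, C4 is cleaved and its larger fragment attaches covalently to the target surface, where with C2 it forms the enzyme that cleaves C3. In brain, C4b transcript is known from astrocytes and oligodendrocytes and is widely used as a sign of reactive glia, while C1q is made mainly by microglia. Complement proteins are best known there for the tagging of synapses and debris that microglia then engulf.

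C4b (ENSMUSG00000073418) lies on chromosome 17, minus strand, from 34728380 to 34743882 of GRCm38, and its transcript C4b-201 spans 5379 bases in 41 exons (GENCODE M21). A close copy, C4a (ENSMUSG00000015451), lies at 34809092 to 34823464 on the same strand and is annotated as a processed transcript. The longest C4a transcript was identical to C4b-201 at 96.1% of 5367 aligned bases, so how reads were shared between the copies bears on the C4b counts. Visium reads come from near the 3′ end of a transcript, and of the 911 windows of 90 bases in the last 1000 bases of C4b-201, 155 also occurred without a mismatch in C4a and the others did not. No gene other than C4a held any of those windows. The coding end of both transcripts is shown because it is the part nearest to where reads are made. Capitals mark bases that differ, here 1 of 120 (chr17:34728486-34728605 for C4b and chr17:34809197-34809316 for C4a, both within 1 exon).
C4b: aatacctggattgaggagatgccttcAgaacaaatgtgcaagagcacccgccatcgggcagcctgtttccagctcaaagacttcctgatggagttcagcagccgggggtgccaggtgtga
C4a: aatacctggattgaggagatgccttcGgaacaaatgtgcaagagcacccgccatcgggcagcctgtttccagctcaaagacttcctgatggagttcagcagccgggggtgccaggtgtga
Further from the 3′ end the copies part more clearly. The coding stretch of 120 bases with the most differences held 19 (chr17:34735425-34735544 for C4b and chr17:34816081-34816200 for C4a).
C4b: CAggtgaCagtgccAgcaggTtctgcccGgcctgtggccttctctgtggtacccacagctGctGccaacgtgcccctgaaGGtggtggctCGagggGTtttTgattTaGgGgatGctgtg
C4a: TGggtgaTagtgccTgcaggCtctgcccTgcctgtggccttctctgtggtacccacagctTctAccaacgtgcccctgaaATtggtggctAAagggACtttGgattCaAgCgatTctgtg
The files count the copies apart, and C4a stayed scarce. It had 92 and 96 UMIs in young, 101 and 104 in middle, and 94 and 76 in old whole sections. Young and old overlapped in these counts, and C4a did not pass the test between old and young whole sections (log2 fold change 0.05, SE 0.16, edgeR adjusted p = 0.931).

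The 6 sections held 16741 spots with at least 500 UMIs and between 60938938 and 77557934 UMIs each, with the lowest totals in the old sections. Levels are therefore given as CPM, the UMIs of a gene per 1000000 UMIs of all genes in the same spots, and as the share of spots with a UMI after each spot was thinned at random to 5000 UMIs. The sections share barcodes because a barcode is a position on the array: of 3389 barcodes seen, 1919 occurred in all 6 sections. Intervals at 95% cover counting error only. Young 1 differed from the other 5 sections in regional makeup: clusters led by Ddn and Adcy1, by Necab2 and by Hpca and Itpka had 6, 9 and 0 spots there, against 72 to 104, 35 to 53 and 25 to 48 in the others, and its main thalamus cluster had 163 spots against 267 to 337. These 3 clusters were among the 4 left out of the comparison of regions.

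C4b rose stepwise over the whole section. There were 1798 and 1280 C4b UMIs in young, 3283 and 3252 in middle and 5312 and 6334 in old sections. As levels these were 23.4 and 16.5 CPM in young, 43.0 and 43.2 in middle and 77.0 and 103.9 in old sections. No section of 1 age overlapped with a section of another, and the exact Poisson interval of the section with the fewest UMIs, young 2, ran from 15.6 to 17.4 CPM. The means were 19.9 ± 4.86 CPM (SD, n = 2) in young, 43.1 ± 0.12 in middle and 90.4 ± 19.1 in old, which is 2.16-fold from young to middle and 2.10-fold from middle to old. On the log2 scale the rise from young to old was 2.19, against 2.44 without young 1, 2.08 with regions at their pooled shares and 2.00 with regions weighted equally. Within slide 1 the order was the same, from 23.4 and 16.5 through 43.0 to 77.0 CPM, and within slide 2 C4b went from 43.2 in middle 2 to 103.9 in old 2. Summed levels of a section cannot tell more cells with C4b from more C4b RNA per cell.

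The share of spots with C4b rose with age as well. In spots thinned to 5000 UMIs, 11.7% and 10.5% of spots held a C4b UMI in young, 18.8% and 19.8% in middle and 22.5% and 25.2% in old sections. Without thinning the shares were 28.8% and 26.4% in young, 43.4% and 47.4% in middle and 45.4% and 49.0% in old sections, where the old sections are the shallowest, with median depths of 21766 and 20370 UMIs per spot against 30093 and 26306 in young. Both scales put old above young without overlap, by 2.16-fold thinned and 1.71-fold unthinned. Thinned spots with 5 or more C4b UMIs made up 0.24% and 0.11% of spots in young, 0.92% and 0.93% in middle and 4.61% and 4.84% in old sections.

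Young 1 stood apart in how unevenly its C4b lay. Its 50 richest spots held 41.5% of the section's C4b UMIs, against 20.0% to 29.6% in the other 5 sections, and a single spot of the ventricle cluster held 93 UMIs. Without their 50 richest spots the levels were 13.9 and 12.997 CPM in young, 33.2 and 35.0 in middle and 54.8 and 75.2 in old sections, so the ages still did not overlap. Of those 50 spots, between 37 and 50 per section lay in the white matter clusters or the choroid plexus and ventricle cluster described below. In both old sections only 1 spot or none of the 50 lay elsewhere.

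**Figure D1:**
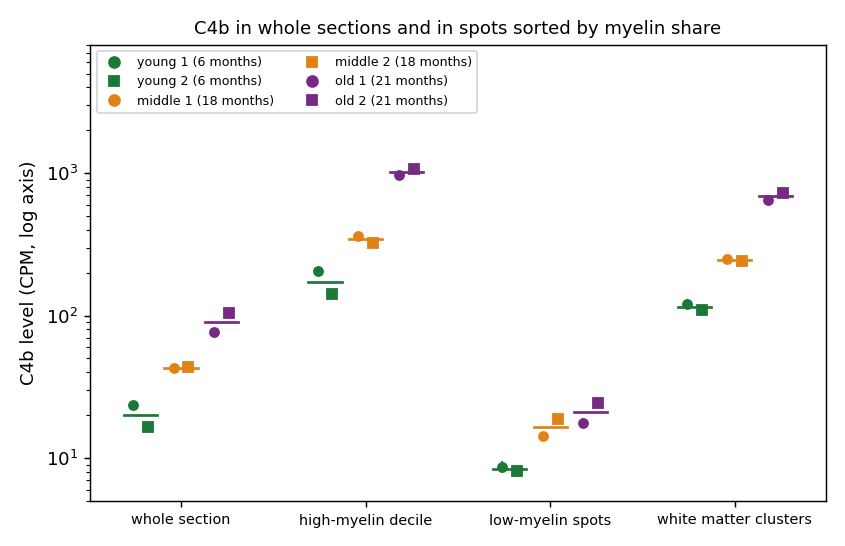
C4b level in CPM (log axis) for each section, in the whole section, in the 10% of spots with the highest myelin share, in the 50% with the lowest and in the white matter clusters. Points are sections with exact Poisson 95% intervals, mostly hidden by the points, and bars are group means of 2 sections. The 3 ages are separate in whole sections and in myelin-rich spots, while middle and old overlap in myelin-poor spots.

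Myelin-rich spots had the highest C4b levels, and in old sections they held more of the section's C4b than in young. Spots were ranked within each section by the share of their UMIs from 12 myelin genes, such as Mbp (myelin basic protein) and Mog (a glycoprotein of the outer myelin surface), and the highest decile is called high-myelin and the lower 50% low-myelin. High-myelin spots measured 205 and 141 CPM of C4b in young, 362 and 324 in middle and 974 and 1065 in old sections. The ages were separate, with means of 173 ± 45.1 (SD, n = 2), 343 ± 27.2 and 1020 ± 64.9 CPM and a ratio of old to young of 5.90. These spots made up 4.15% and 3.84% of all UMIs in young, 5.89% and 5.37% in middle and 4.76% and 5.74% in old sections. They held 36.3% and 32.7% of the C4b UMIs in young, 49.5% and 40.2% in middle and 60.2% and 58.9% in old sections. Both shares were thus larger in middle than in young sections.

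Low-myelin spots had little C4b at any age and a smaller rise. They measured 8.71 and 8.16 CPM in young, 14.2 and 18.9 in middle and 17.7 and 24.5 in old sections. Both older ages lay above young, middle at 1.96-fold and old at 2.50-fold of the young mean of 8.43 ± 0.39 (SD, n = 2), but middle and old overlapped. The ratio of high-myelin to low-myelin levels was 23.5 and 17.3 in young, 25.5 and 17.1 in middle and 54.9 and 43.5 in old sections. Young and middle overlapped in this ratio, and old lay above both. From 6 to 18 months the mean went up 1.98-fold in high-myelin and 1.96-fold in low-myelin spots, and from 18 to 21 months it went up 2.97-fold and 1.28-fold. The median myelin share of high-myelin spots was 6.06% and 6.21% in young, 4.82% and 4.30% in middle and 5.21% and 5.12% in old sections. Its part in the size of these steps was not tested.

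High-myelin spots more often held C4b at the older ages. The thinned share with a C4b UMI was 44.7% and 49.6% in young, 68.9% and 71.3% in middle and 88.4% and 94.6% in old sections. Without thinning it was 63.4% and 64.6% in young, 93.4% and 92.5% in middle and 93.6% and 96.5% in old sections, so middle and old lay close together on that scale. Thinned spots with 5 or more UMIs were 2.4% and 0.79% in young, 9.0% and 9.6% in middle and 45.5% and 46.1% in old sections. In low-myelin spots the thinned share went from 4.7% and 4.3% in young to 8.1% and 10.8% in middle and 9.1% and 10.8% in old sections, where middle and old again overlapped.

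Other transcripts moved with C4b in the same high-myelin spots, and their part in its rise was not tested. The summed level of 10 microglia markers went from 938 ± 127 CPM (SD, n = 2) in young to 1263 ± 63.4 in middle and 1917 ± 267 in old, with all 10 higher in old by their group means. Of 14 astrocyte markers all 14 had a higher mean in old than in young, and their sum went from 3606 ± 71.4 to 3971 ± 10.9 and 4326 ± 112 CPM. All 12 myelin genes had lower means in old, their sum being 59605 ± 1924, 43834 ± 4618 and 50593 ± 871 CPM. The sum of 8 neuron markers was 710 ± 38.1, 1517 ± 313 and 981 ± 161 CPM, with all 8 higher in old than in young. With 1 threshold of myelin share for all sections the rise of C4b from young to old was 2.63 on the log2 scale, against 2.58 with deciles. In whole sections the myelin sum was 6952 ± 328, 6954 ± 319 and 7242 ± 804 CPM and the astrocyte sum 3642 ± 160, 3687 ± 3.35 and 3616 ± 22.5 CPM, both overlapping between young and old. The whole-section microglia sum moved with C4b, from 373 and 412 CPM in young through 465 and 492 in middle to 508 and 568 in old, with no overlap and 10 of 10 markers higher in old, and its part in the rise was not tested.

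**Figure D2:**
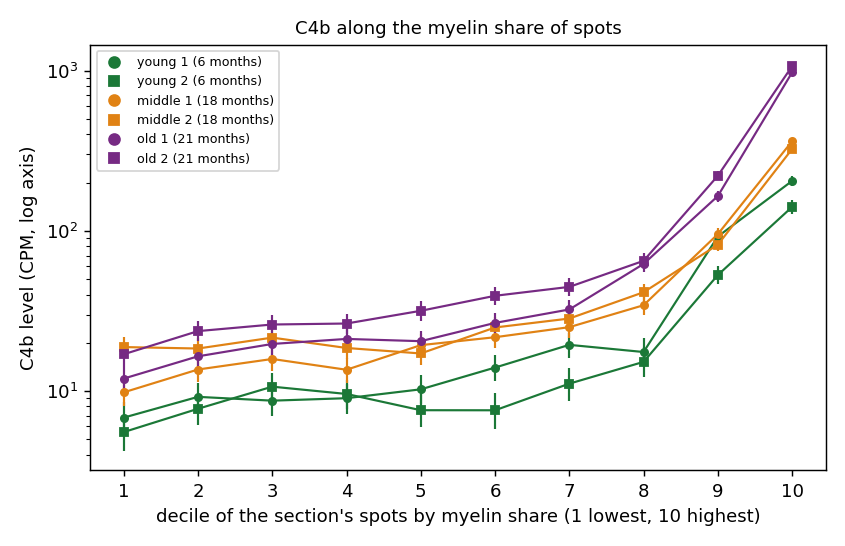
C4b level in CPM (log axis) in deciles of each section's spots ranked by myelin share, 1 line per section with exact Poisson 95% intervals. Up to the middle deciles the old lines climb slowly and the others less steadily, and all steepen from decile 8 upward. The old lines lie above the young lines in each of the 10 deciles.

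Along the whole range of myelin share the level turned up late. In young sections the mean was 6.17 ± 0.90 CPM (SD, n = 2) in the lowest decile, 16.3 ± 1.6 in decile 8, 72.5 ± 27.7 in decile 9 and 173 in the highest. In old sections it was 14.4 ± 3.5, 63.5 ± 2.0, 192.6 ± 39.5 and 1020 CPM. Old and young sections did not overlap in any of the 10 deciles, whereas middle and young overlapped in decile 9. The ratio of old to young was between 2.34 and 3.05 in the 7 lowest deciles and reached 3.89 in decile 8 and 5.90 in the highest, with 2.66 in decile 9.

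Regions were defined by clustering spots on transcripts other than complement, glial and immune genes. Of 24 clusters, 20 had at least 20 spots in every section, and these are groups of like spots rather than drawn anatomy. Both old sections lay above both young sections in 20 of 20, with ratios from 1.55 to 6.98 and a median of 3.02. Both middle sections lay above both young sections in 17 of 20, and both old above both middle in 10 of 20. The order of regions was led at every age by the cluster of white matter and that of the ventricle, and its 4 lowest places were isocortex.

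**Figure D3:**
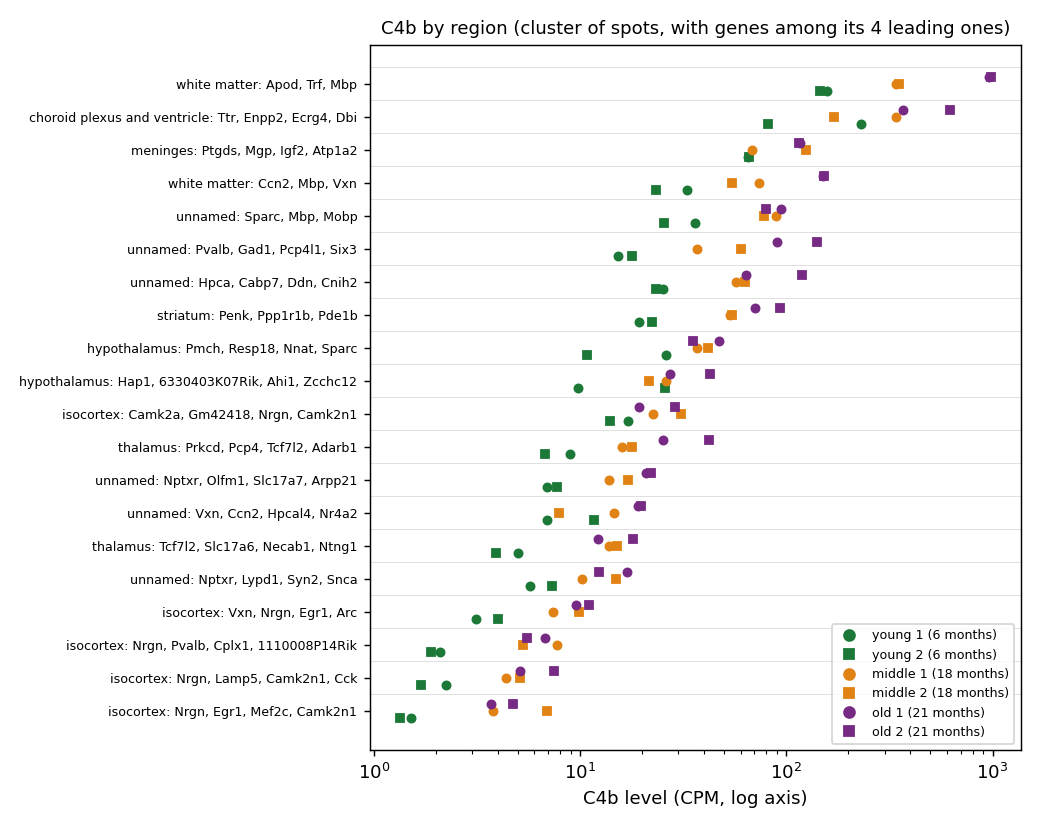
C4b level in CPM (log axis) in 20 clusters of spots, ordered by their mean over the 6 sections and labelled with genes among their 4 leading ones. Each point is 1 section. White matter led by Apod, Trf and Mbp is highest in the old sections and the isocortex clusters are lowest, and the old points lie to the right of the young points in every row.

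The white matter cluster with Apod, Trf and Mbp among its 4 leading genes (1558 spots) measured 158 and 145 CPM in young, 339 and 351 in middle and 959 and 982 in old sections. Replicates here differed far less than ages, and the ratio of old to young was 6.397. Another white matter cluster, led by Ccn2 and including the deep cortical layer that Ccn2 marks, measured 32.8 and 23.3 CPM in young, 73.9 and 54.4 in middle and 150 and 153 in old sections. Here too no ages overlapped. All spots of white matter clusters together measured 121 and 109, 249 and 244, and 647 and 731 CPM.

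The choroid plexus and ventricle cluster, led by Ttr (transthyretin, the main secreted product of choroid plexus) and Enpp2, measured 230 and 82.0 CPM in young, 341 and 170 in middle and 368 and 624 in old sections. Young and middle overlapped, and replicates lay far apart. Within this cluster spots above the median of Ttr had less C4b than the others in 6 of 6 sections, with ratios from 0.08 to 0.75. Spots above the median of myelin share had more in 6 of 6 (3.78 to 25.9), and so did those above the median of Gfap, the intermediate filament of reactive and subventricular astrocytes (3.45 to 27.2). The ratio for 6 ependymal genes went both ways, from 0.79 to 3.28.

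The meninges cluster, led by Ptgds, Mgp and Igf2, measured 65.5 and 66.3 CPM in young, 67.8 and 125 in middle and 116 and 116 in old sections. Old lay above young by 1.76-fold and overlapped with middle. By its young mean this cluster had rank 3 of 20. The smallest ratio of the 20, 1.55, was that of an isocortex cluster led by Camk2a, with 17.1 and 14.0 CPM in young and 19.4 and 28.9 in old sections.

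Striatum, thalamus and a cluster left unnamed took a middle place. The unnamed cluster, led by Pvalb, Gad1, Pcp4l1 and Six3, which include genes of inhibitory neurons, had the largest ratio of all, 6.98. It measured 15.3 and 17.8 CPM in young, 37.1 and 60.7 in middle and 89.9 and 141 in old sections. It covered 41 to 81 spots per section, with 1.503% of its UMIs from myelin genes. Its 50 leading genes held 5 white matter markers, none of them in the first 10, against 2 markers of isocortex. Striatum, led by Penk, measured 19.4 and 22.4 CPM in young, 53.3 and 54.6 in middle and 70.7 and 93.5 in old sections. The thalamus cluster led by Prkcd, a marker of relay nuclei, measured 8.99 and 6.76, 16.0 and 17.9, and 25.2 and 42.2 CPM. In each of these 3 clusters no ages overlapped.

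In the next 3 clusters C4b rose by 18 months and old and middle did not separate, whereas in a second hypothalamus cluster only old stood apart. The thalamus cluster led by Tcf7l2 and Slc17a6 measured 5.01 and 3.93 CPM in young, 13.8 and 15.1 in middle and 12.2 and 18.1 in old sections. A cluster with Sparc and Mbp among its leading genes measured 36.1 and 25.5, then 88.8 and 77.7, then 94.0 and 79.3 CPM. The hypothalamus cluster led by Pmch, the precursor of melanin-concentrating hormone, measured 26.1 and 10.8, 36.8 and 41.6, and 47.0 and 35.4 CPM. In all 3 of them both middle sections lay above both young sections and overlapped with old. The second hypothalamus cluster, led by Hap1, stood at 9.81 and 25.8 CPM in young, 26.1 and 21.7 in middle and 27.4 and 42.5 in old sections. There young and middle overlapped and old lay above both. The young sections stood in opposite order in these hypothalamus clusters. All hypothalamus spots together measured 14.4 and 17.7 CPM in young, 31.4 and 29.9 in middle and 35.5 and 39.0 in old sections, and no ages overlapped.

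Isocortex held the 4 lowest clusters. Their young means ran from 1.42 to 3.57 CPM and their old means from 4.23 to 10.3 CPM, which is 2.89-fold to 3.21-fold. The lowest, led by Nrgn, Egr1 and Mef2c, rested on 11 and 10 UMIs in young, 25 and 39 in middle and 21 and 24 in old sections. Old and middle overlapped in all 4. In the cluster led by Nrgn and Lamp5, the thinned share of spots with a C4b UMI was 1.3% in young, 3.2% in middle and 2.1% in old, at median depths of 34258 to 46808 UMIs per spot before thinning. In the main white matter cluster that share was 46.5%, 71.9% and 90.6%, at median depths of 9361 to 14323.

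Co-detection set C4b beside glial genes spot by spot. For each gene, thinned spots above the section's median of that gene were compared with the others, and the share of C4b-positive spots in the first was divided by that in the second. Spots of 1 section are not replicates, so the values are given as means and ranges over the 6 sections. The highest ratios belonged to Apod (apolipoprotein D), at 4.47 (3.24 to 6.52), and Gfap, at 4.28 (3.38 to 4.86). For Gfap the mean was 3.34 at 10000 UMIs and 3.14 between outer quartiles. The ratio for Apod also moved by more than 1 SD under both. Spots at the median counted with the others. A scarce gene can thus have fewer spots above its median, and ratios of different genes can rest on unlike splits. In old sections 49.7% of spots with Gfap above its median held C4b, against 11.2% of the others.

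Oligodendrocyte genes followed closely as a group. Mal, Mbp, Cnp, Mobp, Mag, Mog and Cldn11, all components of myelin or of its making, had ratios between 3.09 and 3.74. Il33, an alarmin of mature oligodendrocytes in this tissue, stood lower at 2.48. The median over the 10 oligodendrocyte genes was 3.39, against 1.91 for 4 microglia genes and 1.64 for 10 astrocyte genes.

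Astrocyte genes split widely. The filament gene Vim had a ratio of 2.69, the protease inhibitor gene Serpina3n 2.11 and the water channel gene Aqp4 1.97. Mlc1 stood at 1.68, Gja1 (connexin 43) at 1.60, the glutamate transporter gene Slc1a3 at 1.37, Aldoc at 1.13 and Gjb6 at 1.07. The other glutamate transporter gene, Slc1a2, which is most abundant in grey matter astrocytes, stood at 0.86 (0.80 to 0.92). The last did not keep its direction in every section: its range was 0.83 to 1.02 at 10000 UMIs and 0.78 to 1.06 between outer quartiles, and the mean for Gjb6 was 0.93 between outer quartiles. Among microglia genes C1qa stood at 2.16, Ctss (cathepsin S) at 2.04 and Cx3cr1 at 1.45.

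**Figure D4:**
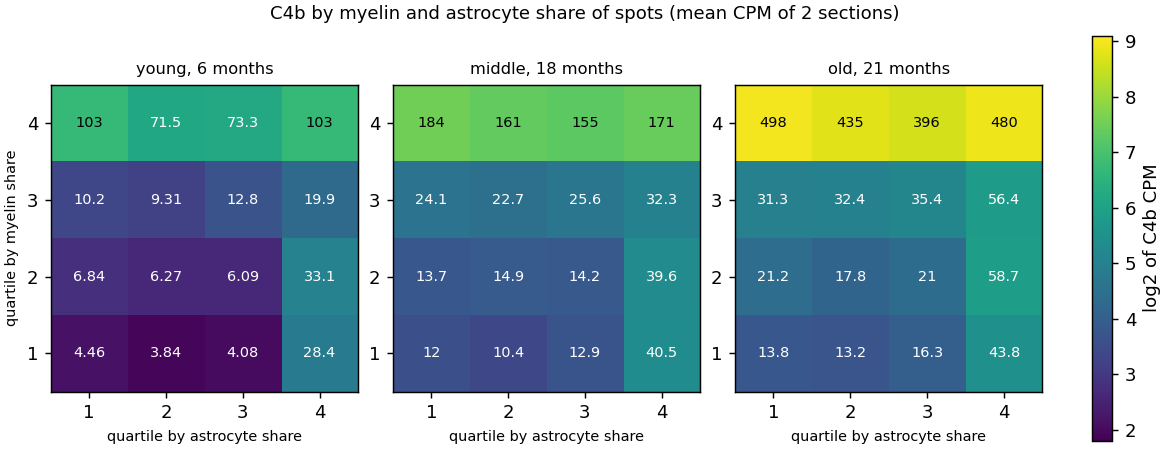
Mean C4b level in CPM of 2 sections per age, in spots sorted into quartiles by myelin share (rows, 4 highest) and by the share of 14 astrocyte genes (columns, 4 highest), with colour for the log2 of the level. In the 2 lowest myelin rows the level is high in the last astrocyte column only, while in the highest myelin row it differs little between columns.

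In spots sorted by both myelin and astrocyte share, C4b differed with the astrocyte share at the low end of myelin. In the lowest myelin quartile, C4b was alike in the 3 lower astrocyte quartiles, at 3.84 to 4.46 CPM in young, 10.4 to 12.9 in middle and 13.2 to 16.3 in old means. In the highest astrocyte quartile of the same rows it was 28.4 ± 6.7 CPM (SD, n = 2) in young, 40.5 ± 14.1 in middle and 43.8 ± 0.58 in old. The ratio of the highest to the lowest astrocyte quartile was 8.14 and 4.88 in young, 3.47 and 3.35 in middle and 4.11 and 2.57 in old sections. All 6 sections thus had more C4b in astrocyte-rich spots of myelin-poor tissue. Between 24.3% and 43.3% of these astrocyte-rich spots belonged to the meninges or ventricle cluster. Without both clusters, a choice made after seeing the data, the ratio was 5.51 and 2.90 in young, 2.53 and 2.77 in middle and 2.99 and 2.38 in old sections.

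In the highest myelin quartile the same ratio was 1.02 and 0.96 in young, 1.06 and 0.80 in middle and 0.82 and 1.10 in old sections. The ratio there lay on both sides of 1 among the sections. High-myelin spots were also split at the median of other transcripts. Those richer in microglia genes had more C4b in 6 of 6 sections, by 1.31-fold to 1.98-fold. Those richer in Gfap had more in 6 of 6, by 1.23-fold to 4.43-fold, and both ends of this range were young sections. For the astrocyte genes together the ratio of richer to poorer spots was 1.26 and 1.43 in young sections. It was 0.95 and 1.05 in middle and 0.76 and 0.90 in old sections. No ages overlapped in this ratio, and astrocyte-rich spots had more C4b in young and less in old sections. Spots richer in neuron genes had less in 6 of 6 (0.32 to 0.80). Endothelial genes made little difference, with ratios from 0.87 to 1.15.

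The genes with the most similar pattern included Gfap and several microglia genes. Over 120 points (20 regions in 6 sections), the correlation of log2(CPM + 1) with C4b was computed for 9663 genes with a mean of at least 10 CPM. The points share sections, depth and cell makeup, so no p is given. Gfap came first, with Pearson's r = 0.92, followed by C1qc (0.90), C1qa (0.90), Cyba (0.90), Ech1 (0.90), S100a13 (0.89), C1qb (0.89), Itgb5 (0.89), Tyrobp (0.89) and Ctss (0.88). C1qa, C1qb and C1qc encode the chains of C1q, Tyrobp the signalling adaptor of Trem2, and Cyba a subunit of the phagocyte oxidase.

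When each region's mean was subtracted, so that age and section remained, r was 0.82 for Tyrobp, 0.78 for Gfap, 0.78 for C1qc, 0.76 for C1qa, 0.74 for Ctss and 0.74 for C1qb. It was 0.46 for Ech1, the lowest of the 10 genes. In high-myelin spots Gfap measured 517 ± 5.9 CPM (SD, n = 2) in young, 610 ± 18.6 in middle and 1182 ± 310 in old, and Serpina3n 25.6 ± 15.3, 65.7 ± 1.5 and 263 ± 71.6. Ech1, a fatty acid oxidation enzyme, measured 140 ± 2.1, 130.4 ± 1.8 and 140.1 ± 2.7 CPM there. There young and old overlapped.

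The rest of the complement system was tested with edgeR on sums per section, with p-values adjusted over all genes tested. The list held 54 genes besides C4b, and C4b itself was left out of the counts. In high-myelin spots 26 of the 54 had enough counts, and 9 of these were higher in old than in young and none lower, against 2.97% of the 12748 genes tested that were called in either direction (1.87% higher). The median log2 fold change was 0.34 over the 26 and -0.003 over all genes. C4b's own log2 fold change in this fit was 2.47 (SE 0.16). The sum of 10 microglia markers went from 848 and 1027 CPM in young to 1729 and 2106 in old high-myelin spots. How far the complement calls follow this rise of microglia transcripts was not tested.

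Of the genes that start the cascade, the 3 C1q chains rose. C1qa measured 195 and 221 CPM in young, 274 and 301 in middle and 399 and 549 in old high-myelin spots, after edgeR's TMM scaling. All 3 ages were separate, and the log2 fold change from young to old was 1.19 (SE 0.14, edgeR adjusted p = 0.000142). C1qb and C1qc rose by 1.12 (SE 0.13, edgeR adjusted p = 0.000122) and 1.11 (SE 0.11, edgeR adjusted p = 1.3e-06). The lectin pathway protease Masp1 and the collectin Colec12 did not pass the test (0.80, SE 0.39, edgeR adjusted p = 0.332; 0.06, SE 0.33, edgeR adjusted p = 0.964).

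C3, the component on which all pathways converge, was scarce but rose from 6.31 and 4.15 CPM in young through 14.5 and 9.38 in middle to 20.2 and 28.5 in old high-myelin spots (log2 fold change 2.21, SE 0.29, edgeR adjusted p = 9.8e-05). Its 3 ages did not overlap. Properdin, Cfp, which stabilises the alternative pathway enzyme, did not pass the test (-0.51, SE 0.31, edgeR adjusted p = 0.477).

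Of 6 receptor genes tested 4 rose. Itgax, the CD11c subunit of complement receptor 4, had 2 and 1 UMIs in young, 23 and 16 in middle and 31 and 57 in old high-myelin spots (log2 fold change 4.55, SE 0.55, edgeR adjusted p = 1.99e-05). With 3 young UMIs in all, the ratio of rates was 26.7, with a counting interval from 8.83 to 132. Itgb2, the shared beta chain, rose by 1.57 (SE 0.23, edgeR adjusted p = 0.000236), C3ar1, the receptor for the C3a fragment, by 1.21 (SE 0.30, edgeR adjusted p = 0.0289) and Itgam, the CD11b subunit of complement receptor 3, by 0.87 (SE 0.22, edgeR adjusted p = 0.0325). C5ar1 and Cd93 did not pass the test.

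Several regulators of the cascade did not pass the test between old and young. Clu (clusterin, which holds back the terminal complex) stood at 2051 and 2051 CPM in young, 2046 and 1858 in middle and 2572 and 2785 in old high-myelin spots. Both old sections lay above the others, with a change from young of 0.38 (SE 0.11, edgeR adjusted p = 0.0572). It passed in 5 of 12 alternatives, DESeq2 among them, with adjusted p from 0.0182 to 0.416. Serping1, the C1 inhibitor, changed by 0.99 (SE 0.40, edgeR adjusted p = 0.267), and Csmd1, Csmd2 and Csmd3 by -0.14, -0.25 and -0.38, none past the test. Susd4, a brake on the C3 convertase and 1 of the 5 complement genes with the highest mean level in whole sections, did not pass either (-0.0037, SE 0.21, edgeR adjusted p = 0.996).

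**Figure D5:**
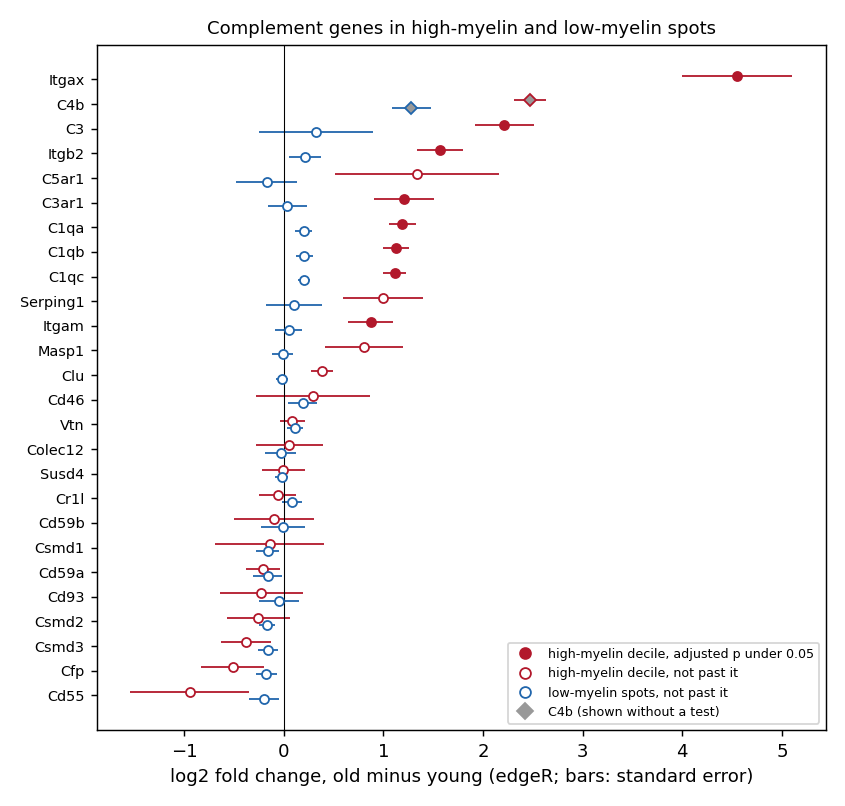
Log2 fold change of 25 complement genes besides C4b from young to old with standard errors (edgeR), in high-myelin spots (red) and low-myelin spots (blue); filled circles passed an adjusted p of 0.05 and C4b, as diamonds, is shown without a test. In high-myelin spots 8 of the genes shown passed and all lie to the right of 0, and in low-myelin spots none passed.

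The steps from 6 to 18 and from 18 to 21 months in high-myelin spots share the middle sections and are given side by side. From young to middle 6 of the 26 genes rose and none fell, against 10.6% of all genes called (6.11% higher). Among the 6, C1qa rose by 0.47, C1qc by 0.36, C3 by 1.19, Itgax by 3.06 and Itgb2 by 0.82. DESeq2 called none of the 26 in this step. From middle to old 6 rose and none fell, against 1.11% of all genes (0.486% higher): C1qa by 0.72, C1qb by 0.72, C1qc by 0.75, C3 by 1.03, Clu by 0.46 and Itgax by 1.49. C4b changed by 0.90 (SE 0.16) and 1.57 (SE 0.15) in these steps.

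In low-myelin spots none of 34 complement genes passed between old and young with edgeR, against 0.0771% of the 16859 genes tested. DESeq2 also called none, and at an unadjusted p under 0.05 edgeR had 1601 of all genes. C1qa changed there by 0.20 (SE 0.09), C1qb by 0.21 (SE 0.08) and C1qc by 0.20 (SE 0.06), while C4b changed by 1.28 (SE 0.20). The difference between the sets of spots was not tested. In whole sections 1 of 38 genes passed, Itgax, against 0.164% of the 17673 genes tested (log2 fold change 3.78, SE 0.44, edgeR adjusted p = 0.0293), and C1qc just missed the threshold (0.56, SE 0.08, edgeR adjusted p = 0.0529). None of the 38 passed between middle and young with edgeR, against 0.0679% of genes (1382 genes had an unadjusted p under 0.05, and DESeq2 called 1 of the 38, Itgax), or between old and middle, where 0 genes of all were called by edgeR or DESeq2 and 361 in edgeR had an unadjusted p under 0.05.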

How the data were processed

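Raw UMI counts of genes in spots were deposited by the authors. Per the file headers they come from Space Ranger 1.3.1, while the submitters' processing notes name version 3.1. The notes give the build mm10, and how reads of near-identical genes were assigned is not given in the sources used here. C4b, the marker lists, the complement list and the comparisons were chosen with earlier results of these data known. Spots under 500 UMIs were left out (1 each in middle 2 and old 2). Clusters came from 2000 variable genes without the complement, glial and immune genes, 30 principal components, 20 neighbours and Leiden clustering (leidenalg 0.10.2, resolution 0.8). A cluster was named when its 50 leading genes held 3 or more markers of a region, with 1 or more in the first 10, and the region with the second most markers had at most 0.5 times as many. This rule was set with the clusters in view. By it 16 clusters have a name and 8 have none (3823 spots), and 977 spots lie in the 4 clusters left out.

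Section totals ran from 60938938 to 77557934 UMIs, so a C4b level over a whole section carries a counting error of 2.5% to 5.5% (95%, exact Poisson). UMIs were summed per section and set of spots and tested, two-sided, in edgeR 4.0.16 with TMM factors, filterByExpr and a robust quasi-likelihood fit of age over the 6 sections, with Benjamini-Hochberg adjustment. Replicates are separate sections. The SE of a log2 fold change was derived from the fit, as its absolute value divided by the square root of the quasi-likelihood F statistic. This holds for C4b as well, for which no p is given. Named genes were C4b and C4a, complement genes that passed in any fit and the 5 most abundant ones, the 10 genes most like C4b, and the listed glial markers; Masp1, Colec12, Cfp, C5ar1, Cd93, Serping1 and the Csmd genes were named after their values were seen. Alternatives were DESeq2 1.42.0, RLE factors, other filters, slide or replicate number as a term, other myelin thresholds, resolutions and thinning depths, and leaving out each section. On simulated counts with 200 genes changed 2-fold, the test recovered 75.8% of them in whole sections (17673 genes), 66.8% in high-myelin spots (12748) and 80.8% in low-myelin spots (16859), and unchanged genes made up 9.8%, 10.0% and 10.1% of the calls. Transcript sequences come from GENCODE M21 (GRCm38), aligned with Biopython 1.88. Some genes are counted in the totals and not reported here by name.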

Additional observations from a re-analysis of the deposited data

How the results depend on the processing

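The rise of C4b from young to old kept its direction and stayed within 1 SD of its reported size under each alternative run. With 2 sections per age, leaving 1 out cannot move the rise by more than 1 SD. Those runs could therefore not fail this measure of size. They gave 1.94 to 2.44 (log2) in whole sections, 2.31 to 2.85 in high-myelin spots, 1.07 to 1.54 in low-myelin spots and 2.50 to 2.68 in white matter clusters. Without the ventricle cluster, an alternative chosen after seeing the data, the rise was 2.27 in whole sections and 2.80 in high-myelin spots. The rise in C4b-positive spots was 12.8 percentage points, 16.3 after thinning to 10000 UMIs, 19.6 without thinning and 11.5 to 14.2 when 1 section was left out. The median co-detection ratio of oligodendrocyte genes was 3.39, 2.43 at 10000 UMIs and 2.25 between outer quartiles. Between 9 and 10 of the 10 genes most like C4b were shared under each alternative, and Gfap came first in each.

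Genes called between old and young were 29 in whole sections, 378 in high-myelin and 13 in low-myelin spots. They were 194, 151 and 43 with DESeq2, 113, 688 and 61 without a filter on low counts, and 7, 172 and 6 with slide as a term. Leaving out 1 section gave 6 to 75, 118 to 464 and 1 to 117. The fewest came without old 2 in whole sections (6) and high-myelin spots (118) and without old 1 or old 2 in low-myelin spots (1 each), and the most in whole and low-myelin sums without young 2. The cause was not tested, beyond the fewer samples.

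Of the complement genes in high-myelin spots, 9 passed between old and young and 6 to 10 when 1 section was left out. C1qa, C1qb, C1qc, C3 and Itgb2 passed in 12 of 12 alternatives and Itgax in the 11 of 11 where it was tested, while C3ar1 and Itgam passed in 7 of 12 each, with adjusted p up to 0.356 and 0.33. Between middle and young 6 passed, 0 with DESeq2, 1 with slide as a term and 2 to 7 when 1 section was left out (2 without middle 2, 3 without young 1 or middle 1). Between old and middle 6 passed and 0 to 7 when 1 section was left out (0 without old 2, 2 without middle 2). In whole sections 1 passed between old and young, 5 with DESeq2, 3 without a filter, 0 with at least 10 counts in every section, 0 with slide as a term and 0 to 3 when 1 section was left out. The call for Itgax there was lost with the replicate block, with slide as a term, and without either young section, either middle section or old 2.

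Same-numbered sections did not deviate together in each pair (correlations of -0.06, 0.31 and 0.29 in whole sections), so the replicate number was not taken as a pairing. With the replicate block 21, 394 and 10 genes were called between old and young in whole sections, high-myelin and low-myelin spots, and 2, 9 and 0 complement genes. The 2 in whole sections were C1qb and C1qc, and Itgax did not pass (adjusted p = 0.0634).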
